A study of Mus musculus with 2 samples.

Results

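The lysosomal genes examined here were the cathepsins, the subunits of the vacuolar proton pump (V-ATPase) and 20 listed hydrolases, proteases and lysosomal membrane or transport proteins. Members were symbols made of Cts and a single letter, symbols that begin with Atp6v0 or Atp6v1, and the listed genes, and the rule used no measured value. In all, 61 of the 32285 genes in the files met this rule, 41 by symbol pattern and 20 from the list. They comprised 18 cathepsins, 2 other proteases, 10 glycan and lipid hydrolases with their activators, 8 membrane and transport proteins (with progranulin), 9 genes of the membrane sector of the V-ATPase (V0) and 14 matching the name of its catalytic sector (V1). Among the last, *Atp6v1fnb* shares the prefix as a neighbour of *Atp6v1f* and is not a subunit.

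Transcripts were counted in single cells of injured mouse muscle. Wild-type (*WT*) C57BL/6J male mice, 14 weeks of age, received intramuscular barium chloride, which lyses myofibers and spares many of the mononuclear cells between them, and quadriceps were taken 1 day or 3 days later. Each day was 1 library, made from several pooled mice after a sort on light scatter and cryopreservation, and myofibers were not in the suspensions. With 1 library per day there was no replicate and no test: all intervals below are 95% intervals for counting error only, and the day, the library and its chemistry cannot be told apart. Both groups share the genotype, muscle, injury, sex and age, and no uninjured muscle was analysed here.

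Lysosomes break down material taken up by phagocytosis and autophagy. The V-ATPase pumps protons into the lumen, the acid pH activates the cathepsins and the hydrolases of glycans and lipids, and membrane proteins such as the LAMPs protect the lysosomal wall and export the products. Macrophages that clear necrotic muscle rely on this machinery, osteoclasts use a secreted form of it to resorb bone, and neutrophils keep related proteases in granules.

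The day 1 library held 74852240 unique molecular identifiers (UMIs, 1 per captured transcript molecule), and the day 3 library 102565783. After filtering, 6735 cells of day 1 (median 9389 UMIs) and 4627 of day 3 (median 14548 UMIs) remained. The limit of 7.5% mitochondrial UMIs removed 7.02% of the day 1 barcodes and 30.3% of those of day 3, and no barcode was shared between the kept cells of the libraries. The barcode lists of the libraries differ in size (737280 and 6794880), so the absence of shared barcodes is no check on mixing between them. Levels are given as CPM, counts scaled to 1000000 UMIs, pooled over the cells of a type. The libraries count 3′ ends, so levels of different genes were compared as CPM without division by length.

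Cells were named from marker genes after clustering without the 61 members. Monocyte/macrophage-like cells numbered 3426 on day 1 and 2810 on day 3, neutrophil-like cells 819 and 99, dendritic cell-like cells 482 and 454, and fibroblast/fibro-adipogenic progenitor (FAP)-like cells 656 and 846. The dendritic cell-like name rested on 3 raised markers of 9, the fewest allowed. That cluster held 3240 and 4265 CPM of macrophage markers against 401 and 439 CPM of its own. Satellite cell/myoblast-like cells (199) were described on day 3 only, since day 1 held 6 of them, and endothelial-like cells (97 and 59) were a mixed pool on both days and were not compared between them. On day 1 the pool held 3369 CPM of neutrophil and 1748 CPM of erythroid markers against 3258 CPM of its own, and on day 3 2352 CPM of T/NK cell markers against 2827 CPM of its own. Its single members are given for day 1, where it had more cells. A cluster of 1249 and 160 cells led by *Il23a*, with a median of 2349 and 1664 UMIs per cell, was left unnamed. It held 78969 and 29770 CPM of neutrophil markers, all 10 detected, and more cells than the neutrophil-like type, so the neutrophil-like values leave out most cells with these markers.

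Summed over all 61 members, transcripts were highest in monocyte/macrophage-like cells on both days, and in those cells they were 1.67-fold higher on day 3. The sum was 26416 CPM on day 1 (95% CI 26365 to 26466) and 44220 CPM on day 3 (95% CI 44158 to 44282). Dendritic cell-like cells, which process antigens in the same compartments, held 23132 CPM on day 1 and 23578 CPM on day 3. Neutrophil-like cells held 13495 and 20123 CPM, and FAP-like cells 7233 and 11151 CPM. The lowest level was that of satellite cell/myoblast-like cells, 4761 CPM on day 3, and endothelial-like cells of day 1 held 12770 CPM. The 59 endothelial-like cells of day 3 held 7144 CPM, and the unnamed *Il23a*-led cluster 12689 and 18863 CPM, with 241 and 3278 CPM of macrophage markers.

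**Figure D1:**
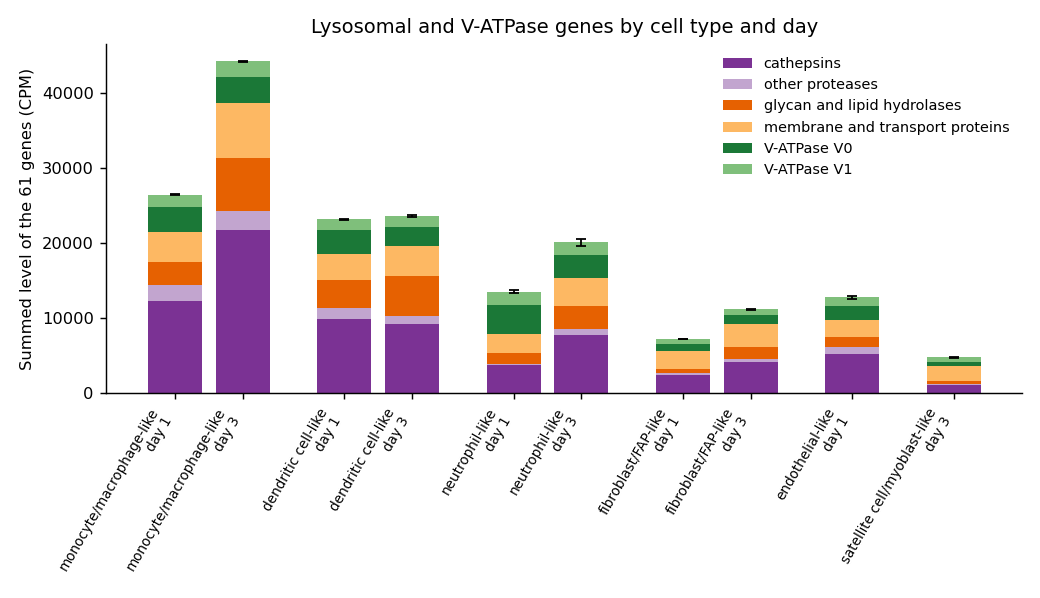
Summed level (CPM, y axis) of the 61 genes in each named cell type and day (x axis), with bars stacked by functional group and error bars for the 95% counting interval of the sum. Monocyte/macrophage-like cells stand at 26416 CPM on day 1 and 44220 CPM on day 3, above every other type.

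On the CPM scale, monocyte/macrophage-like cells stood above the other types by these folds. Against FAP-like cells the summed level was 3.65-fold higher on day 1 and 3.97-fold higher on day 3, an order of the days that turned with TMM scaling (log2 2.38 and 2.24), and against neutrophil-like cells 1.96-fold and 2.20-fold higher. Both day 3 folds were larger against cells without a UMI of 6 macrophage markers, a setting chosen after seeing the data, with 6.27-fold over FAP-like and 3.42-fold over neutrophil-like cells, beside 4.49-fold and 1.92-fold on day 1. Free RNA could make up as much as 47.2% of the UMIs of neutrophil-like cells on day 3, as estimated from stromal collagen genes, and 2.71% on day 1. Dendritic cell-like cells were the nearest, with 1.14-fold on day 1 and 1.88-fold on day 3, and endothelial-like cells of day 1 were 2.07-fold below. Taken member by member, monocyte/macrophage-like cells had the highest level for 18 of the 46 members with at least 100 UMIs on day 1 and for 35 of 47 on day 3, with intervals apart from those of every other type for 13 and 26 of them. How many of all genes were highest in these cells was not computed, so these counts do not set the members apart from other genes. Within the cells themselves, the median share of UMIs taken by the members was 2.44% on day 1 (10th to 90th percentile 1.67% to 3.75%) and 3.57% on day 3 (1.93% to 6.84%), so the distributions overlapped while the upper end of day 3 reached beyond that of day 1.

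Between the days, most genes of monocyte/macrophage-like cells stood higher on day 3 with CPM. The members shifted upwards with them, and farther in a few. Of the 45 members that reached 100 UMIs over both days, 14 were at least 2-fold higher on day 3, or 31.1%, beside 27.3% of the 10671 genes of these cells that passed the same minimum. This share lay near that of all genes. No member was at least 2-fold lower, against 4.84% of all genes. With TMM scaling, which sets the typical gene to no change and takes 0.45 off each log2 ratio, 7 members (15.6%) were at least 2-fold higher, against 16.3% of genes, and 1 (2.22%), *Ctsc*, at least 2-fold lower, against 9.46%. The members' median log2 ratio was 0.68 and that of all genes 0.45, so that with CPM most genes of these cells stood higher on day 3; 34 of the 45 members lay above this median gene and 11 below it. Of the 16 members under the minimum, 8 had no UMI in these cells and the other 8 had at most 66. In the same cells the 10 neutrophil markers, all detected, summed to 1784 CPM on day 1 and 428 CPM on day 3, with *S100a8* the most abundant at 974 and 295 CPM, and the 10 fibroblast markers, all detected, to 31.4 and 112 CPM. Some monocyte/macrophage-like cells had log-normalized *Adgre1* and *Fcgr1* at 1 or more and no UMI of the fibroblast genes *Pdgfra* and *Ly6a*. In these the log2 ratio of the sum was 0.73, beside 0.74 in all monocyte/macrophage-like cells. The part of neutrophil transcripts was not tested.

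**Figure D2:**
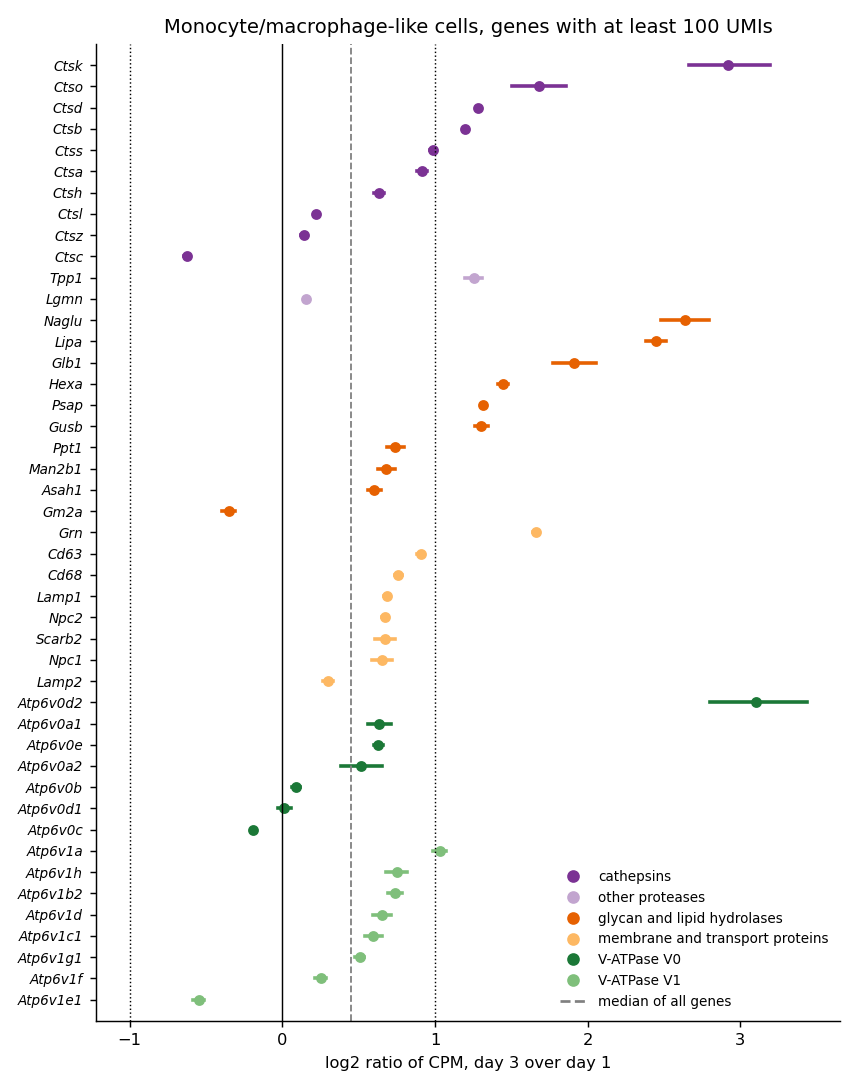
Log2 ratio of CPM, day 3 over day 1, of the 45 members that passed the minimum in monocyte/macrophage-like cells, grouped and coloured by functional group, with bars for 95% counting intervals, a solid line at 0, dotted lines at 2-fold and a dashed line at the median of all genes (0.45). *Atp6v0d2* (3.10) and *Ctsk* (2.92) lie farthest to the right and *Ctsc* (−0.63) and *Atp6v1e1* (−0.55) farthest to the left.

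Cathepsins made up the largest group, with 12307 CPM on day 1 and 21773 CPM on day 3 in monocyte/macrophage-like cells (log2 ratio 0.82, 95% CI 0.82 to 0.83; 0.37 with TMM scaling). *Ctsb*, a cysteine protease on chr14:63122462-63145923 (GRCm38, + strand), was the most abundant member on both days, with 3416 CPM on day 1 and 7808 CPM on day 3 (log2 ratio 1.19, 95% CI 1.18 to 1.20). *Ctsd*, the main aspartic protease of lysosomes, on chr7:142375911-142388038 (− strand), stood at 2539 CPM and 6161 CPM (1.28, 95% CI 1.27 to 1.29). With TMM scaling *Ctsb* (0.74) and *Ctsd* (0.83) were within 2-fold. Among all genes of these cells, *Ctsb* moved from rank 30 to rank 11 and *Ctsd* from rank 53 to rank 14.

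Not every abundant cathepsin followed. *Ctsl*, a cysteine protease, was at 2173 CPM on day 1 and 2537 CPM on day 3, a log2 ratio of 0.22 that lay below that of the median gene. *Ctss*, which trims the invariant chain of MHC class II, was at 1036 and 2051 CPM (0.98), and *Ctsz*, a carboxypeptidase, at 952 and 1050 CPM (0.14). The lowest ratio of any member was that of *Ctsc*, the dipeptidyl peptidase that activates the serine proteases of granules, with 1522 CPM on day 1 and 985 CPM on day 3 (−0.63, 95% CI −0.65 to −0.61; 0.22 in the *Plac8*-led cluster described further on). Without *Ctsb*, *Ctsd*, *Ctsl*, *Ctss* and *Ctsz*, the other 13 cathepsins summed to 2191 CPM and 2167 CPM, a difference of −0.02 on the log2 scale. *Ctsc* accounts for this, since the 12 left without it summed to 668 and 1182 CPM (0.82).

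Among the 10 cathepsins that passed the minimum, 2 at low level had the steepest ratios. *Ctsk*, the collagen-degrading protease best known from osteoclasts, on chr3:95499256-95509362 (+ strand), was at 3.31 CPM on day 1 and 25.2 CPM on day 3 (log2 ratio 2.92, 95% CI 2.66 to 3.20), from 132 and 1121 UMIs. *Ctso* was at 8.51 and 27.3 CPM (1.68). In all, 4 of the 10 cathepsins that passed the minimum were at least 2-fold higher on day 3, beside 27.3% of all genes, and 2 with TMM scaling, beside 16.3%. *Ctsj*, *Ctsm*, *Ctsq* and *Ctsr*, known from placenta, had no UMI in any kept cell of either day.

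The proteases outside the cathepsin family were *Lgmn*, the asparaginyl endopeptidase that processes several cathepsins, and *Tpp1*, a tripeptidyl peptidase. *Lgmn* was among the 5 most abundant members on both days, at 1996 CPM and 2222 CPM (log2 ratio 0.15). *Tpp1* was at 90.1 and 215 CPM (1.25; 0.80 with TMM scaling, within 2-fold). Their sum gave a log2 ratio of 0.22 on the CPM scale that turned to −0.23 with TMM scaling.

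Hydrolases of glycans and lipids had the largest group ratio. Their sum in monocyte/macrophage-like cells was 3029 CPM on day 1 and 7053 CPM on day 3 (log2 ratio 1.22, 95% CI 1.21 to 1.23; 0.77 with TMM scaling), and 6 of 10 were at least 2-fold higher, beside 27.3% of all genes, and 3 with TMM scaling, beside 16.3%. *Psap*, the precursor of the saposins that activate sphingolipid hydrolases, on chr10:60277627-60302597 (+ strand), carried most of it, with 1954 CPM on day 1 and 4865 CPM on day 3 (1.32; 0.87 with TMM scaling, within 2-fold). *Lipa*, the acid lipase that frees cholesterol from its esters, was at 56.9 and 310 CPM (2.45, 95% CI 2.38 to 2.51).

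The enzymes of glycan breakdown lay at lower levels and moved in the same direction. *Naglu*, which acts on heparan sulphate, was at 9.87 CPM on day 1 and 61.3 CPM on day 3 (log2 ratio 2.63). *Glb1*, the lysosomal β-galactosidase, was at 13.2 and 49.6 CPM (1.91), and *Hexa*, an enzyme of ganglioside breakdown, at 238 and 649 CPM (1.44; 0.99 with TMM scaling, within 2-fold). *Gusb*, the β-glucuronidase, was at 137 and 339 CPM (1.30; 0.85 with TMM scaling, within 2-fold). The exception was *Gm2a*, the activator protein that presents the ganglioside GM2 for breakdown, with 253 CPM on day 1 and 198 CPM on day 3 (−0.35, 95% CI −0.39 to −0.31), whose ratio was 0.32 in the *Plac8*-led cluster.

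All 8 membrane and transport genes had ratios above 0 on the CPM scale, with a sum of 3978 CPM on day 1 and 7376 CPM on day 3 (log2 ratio 0.89; 0.44 with TMM scaling), but of the 8 only *Grn* passed 2-fold, beside 27.3% of all genes (16.3% with TMM scaling, where it also passed), and *Lamp2* (0.30) lay below 0 with TMM scaling. *Grn* encodes progranulin, a protein processed in lysosomes, and stood at 592 CPM and 1871 CPM (1.66, 95% CI 1.64 to 1.68). *Cd63*, a tetraspanin of late endosomes, was at 508 and 953 CPM (0.91), and *Cd68*, the macrophage sialomucin, at 717 and 1213 CPM (0.76). *Lamp1*, which coats the inner face of the lysosomal membrane, was at 829 and 1335 CPM (0.69).

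The summed level of the V-ATPase genes had a lower ratio of day 3 over day 1 than those of the cathepsins and hydrolases, with CPM and with TMM scaling. It was 5015 CPM on day 1 and 5582 CPM on day 3, a log2 ratio of 0.15 (95% CI 0.15 to 0.16) that turned to −0.30 with TMM scaling. The V0 sector stood at 3432 and 3455 CPM (0.01; −0.44 with TMM scaling), and the V1 sector at 1583 and 2127 CPM (0.43; −0.02 with TMM scaling). Gene by gene, the median log2 ratio was 0.51 for V0 (6 of 7 above 0) and 0.62 for V1 (7 of 8 above 0), beside 0.68 for all members and 0.45 for all genes; with TMM scaling the medians were 0.064 and 0.17. *Atp6v0c*, the proteolipid of the proton-carrying ring, was the most abundant pump gene, with 2221 CPM on day 1 and 1947 CPM on day 3 (−0.19). *Atp6v0b*, the related ring subunit, was at 539 and 574 CPM (0.09). Of the V1 genes, *Atp6v1a*, the catalytic A subunit, was at 167 and 341 CPM (1.03; 0.58 with TMM scaling, within 2-fold), whereas *Atp6v1e1*, part of the stalk, was at 326 and 223 CPM (−0.55).

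Where several paralogs can fill the same position of the pump, the largest difference between the days on the log2 scale, among members past the minimum, lay in the d subunit. *Atp6v0d1* was level at 219 CPM on day 1 and 221 CPM on day 3 (log2 ratio 0.01, 95% CI −0.03 to 0.06). *Atp6v0d2*, the paralog known from osteoclasts and macrophages, on chr4:19876841-19922605 (− strand), was at 2.34 CPM (93 UMIs) and 20.1 CPM (898 UMIs), the largest ratio of any member (3.10, 95% CI 2.80 to 3.43). Even on day 3 it remained far below *Atp6v0d1*.

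Among the paralogs at the other positions, the order was the same on both days. For the a subunit, *Tcirg1*, which encodes a3 and lies outside the symbol pattern, was at 94.1 and 144 CPM, *Atp6v0a1* at 56.9 and 88.3 CPM and *Atp6v0a2* at 18.4 and 26.3 CPM, and *Atp6v0a4*, a renal form, had no UMI. In the e position, *Atp6v0e* was at 375 and 579 CPM and *Atp6v0e2* at 0.0251 and 0.0224 CPM, which is 1 UMI on each day. Among V1 subunits, *Atp6v1b2* was at 148 and 247 CPM, *Atp6v1c1* at 102 and 154 CPM and *Atp6v1g1* at 393 and 558 CPM. Their tissue-restricted paralogs *Atp6v1b1*, *Atp6v1c2* and *Atp6v1e2* had no UMI in these cells, *Atp6v1g2* was at 0.251 and 1.19 CPM, and *Atp6v1g3* had 1 UMI in all.

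**Figure D3:**
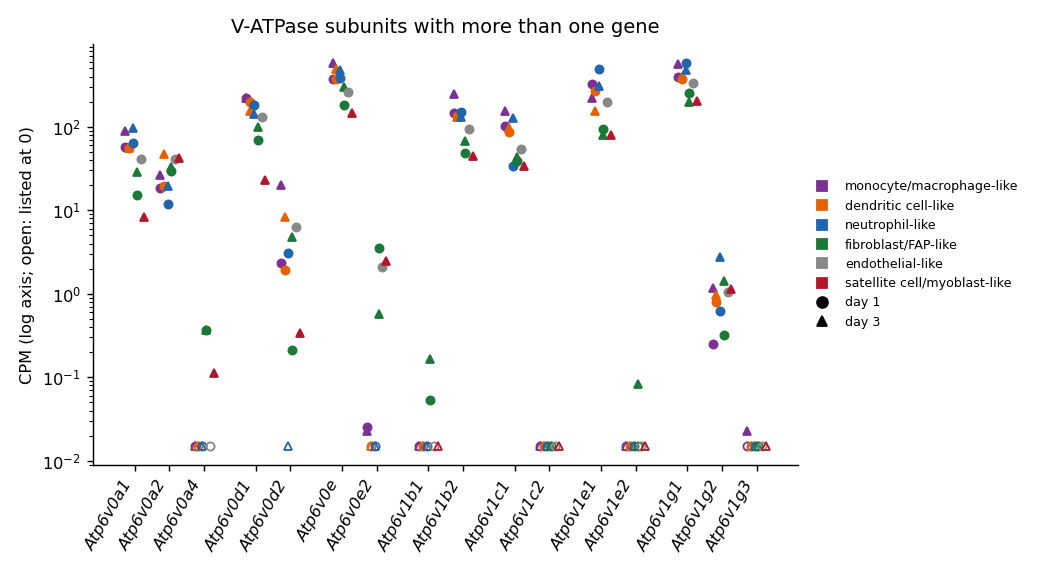
CPM (log axis) of the paralogs that can fill the same position of the V-ATPase, with circles for day 1, triangles for day 3, a colour per cell type and open symbols for genes listed at 0. In monocyte/macrophage-like cells *Atp6v0d1* stays at 219 and 221 CPM while *Atp6v0d2* stands at 2.34 and 20.1 CPM.

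Much of the summed difference came from a few genes. *Ctsb* accounted for 24.7% of the difference between the days, *Ctsd* for 20.3% and *Psap* for 16.4%, together 61.4%. On day 3 these 3 genes held 42.6% of all UMIs of the members in monocyte/macrophage-like cells.

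Promoters of the members were read for the letters of the CLEAR element, the E-box bound by TFEB and related factors that drive lysosomal genes. RefSeq promoter windows on GRCm38.p6, from 250 bases before to 50 after a transcript start, were found for 49 of the 61 members. The palindrome TCACGTGA stood in a window of 5 of these 49, beside 1.12% of all 27025 genes with a window, TCACGTG in 10 of 49, beside 4.29%, and CACGTG in 12 of 49, beside 8.09%; both strands were read, each shorter word lies within the longer, and a gene can have several windows. The 5 windows with the palindrome are shown in the direction of transcription, with the matched letters in capitals (in *Ctsd* also a further TCACGTG of the other strand, which reads CACGTGA here), because they hold genes with high and with level ratios alike. They lie at chr7:142387778-142388077 on the − strand (*Ctsd*), chr2:164833523-164833822 on the + strand (*Ctsa*), chr16:44139210-44139509 on the − strand (*Atp6v1a*), chr8:105566015-105566314 on the − strand (*Atp6v0d1*) and chr17:26676146-26676445 on the + strand (*Atp6v0e*).
Ctsd: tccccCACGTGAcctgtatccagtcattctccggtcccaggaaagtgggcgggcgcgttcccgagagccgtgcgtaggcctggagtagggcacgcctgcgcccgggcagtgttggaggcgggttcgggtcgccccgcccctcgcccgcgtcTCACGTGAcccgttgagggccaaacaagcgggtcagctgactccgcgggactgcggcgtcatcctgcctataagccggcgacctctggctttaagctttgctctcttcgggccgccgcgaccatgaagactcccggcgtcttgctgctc
Ctsa: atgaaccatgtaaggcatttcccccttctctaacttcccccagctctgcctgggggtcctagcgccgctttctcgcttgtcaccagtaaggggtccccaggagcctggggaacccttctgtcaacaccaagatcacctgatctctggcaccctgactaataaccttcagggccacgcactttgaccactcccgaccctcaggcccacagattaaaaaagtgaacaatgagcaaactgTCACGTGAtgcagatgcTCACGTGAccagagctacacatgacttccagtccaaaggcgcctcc
Atp6v1a: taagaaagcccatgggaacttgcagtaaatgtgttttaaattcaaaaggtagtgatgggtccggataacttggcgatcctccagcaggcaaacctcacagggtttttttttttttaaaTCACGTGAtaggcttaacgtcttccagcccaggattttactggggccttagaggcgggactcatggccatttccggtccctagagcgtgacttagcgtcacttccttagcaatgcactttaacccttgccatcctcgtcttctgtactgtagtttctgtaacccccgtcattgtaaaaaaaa
Atp6v0d1: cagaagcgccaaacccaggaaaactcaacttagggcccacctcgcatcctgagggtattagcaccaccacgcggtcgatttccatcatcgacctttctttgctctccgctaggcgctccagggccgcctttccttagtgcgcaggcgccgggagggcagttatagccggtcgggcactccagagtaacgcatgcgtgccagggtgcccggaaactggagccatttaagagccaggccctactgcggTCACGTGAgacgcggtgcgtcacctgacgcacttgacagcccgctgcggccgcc
Atp6v0e: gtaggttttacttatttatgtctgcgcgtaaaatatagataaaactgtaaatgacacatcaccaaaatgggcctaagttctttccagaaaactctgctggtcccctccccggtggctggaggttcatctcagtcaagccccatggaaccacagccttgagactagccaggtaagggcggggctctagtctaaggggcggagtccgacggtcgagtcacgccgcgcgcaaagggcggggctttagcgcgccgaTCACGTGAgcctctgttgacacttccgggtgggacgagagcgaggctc

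Members with the letters had ratios from level to over 2-fold in monocyte/macrophage-like cells. *Ctsd* and *Atp6v1a* had log2 ratios of 1.28 and 1.03, *Ctsa*, the carboxypeptidase that shields β-galactosidase, 0.91 (329 and 620 CPM), *Atp6v0e* 0.63 and *Atp6v0d1* 0.01. Of the members at least 2-fold higher on day 3 that had a window, 4 of 12 held TCACGTG, against 6 of 23 of those within 2-fold. A match of letters is a description of the sequence and not a measured binding site.

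Genes of the same pathway outside the rule were read from a list of 70, all of which passed the minimum in monocyte/macrophage-like cells. Of these, 25 were at least 2-fold higher on day 3 (35.7%, beside 27.3% of all genes) and 3 at least 2-fold lower (4.29%, beside 4.84%), with a median log2 ratio of 0.81 beside 0.45. With TMM scaling 15 were higher (21.4%, beside 16.3%) and 4 lower (5.71%, beside 9.46%). Other hydrolases made up most of the former, 16 of 33, whereas 7 of 22 membrane proteins, 2 of 7 sorting genes and none of the 4 further V-ATPase genes, which include *Tcirg1*, passed 2-fold upwards. Among those farthest from 0 were *Gpnmb*, a glycoprotein of lysosomal membranes, with 35.3 CPM on day 1 and 914 CPM on day 3 (4.69), and *Arsb* (3.70) and *Sgsh* (3.66), both sulphatases of glycosaminoglycans. *Dpp7* and *Acp5*, a dipeptidyl peptidase and an acid phosphatase, had log2 ratios of 1.88 and 1.84. The lower genes, *Tfec*, *Slc15a3* (−1.35), a peptide transporter of endolysosomes, and *Slc11a1* (−1.09), the metal transporter of phagosomes, were named after their values were seen.

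Transcription factors of the pathway had ratios in both directions, within 2-fold but for *Tfec*. *Tfeb* was at 13.5 CPM on day 1 and 24.2 CPM on day 3 (log2 ratio 0.84), *Mitf* had a ratio of 0.43 and *Tfe3* of −0.11. *Tfec*, a macrophage member of the same family, was at 40.2 and 12.9 CPM (−1.63).

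The clusters of monocyte/macrophage-like cells differed more among themselves on day 3 than on day 1. Clusters are given by their leading gene and are descriptions of the cells, not tests. On day 1 the members summed to 19750 CPM in the *Plac8*-led cluster (133 cells), 20516 in the *Ifitm6*-led (403), 22217 in the *Dmkn*-led (673), 26944 in the *Ccl24*-led (1156) and 30813 in the *Cd163*-led cluster (986), a 1.56-fold range. On day 3 they summed to 20813 CPM in the *Plac8*-led cluster (332 cells), 29676 in the *Ifit3*-led (630), 37394 in the *Fcrls*-led (881) and 57932 in the *Gpnmb*-led cluster (905), a 2.78-fold range. The ranges of the days overlapped, and clusters rich in cells of a day were nearly absent from the other: only 10 cells of day 1 fell in the *Gpnmb*-led and 1 cell of day 3 in the *Ccl24*-led cluster. For such clusters, the state of the cells and the library they came from cannot be told apart.

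**Figure D4:**
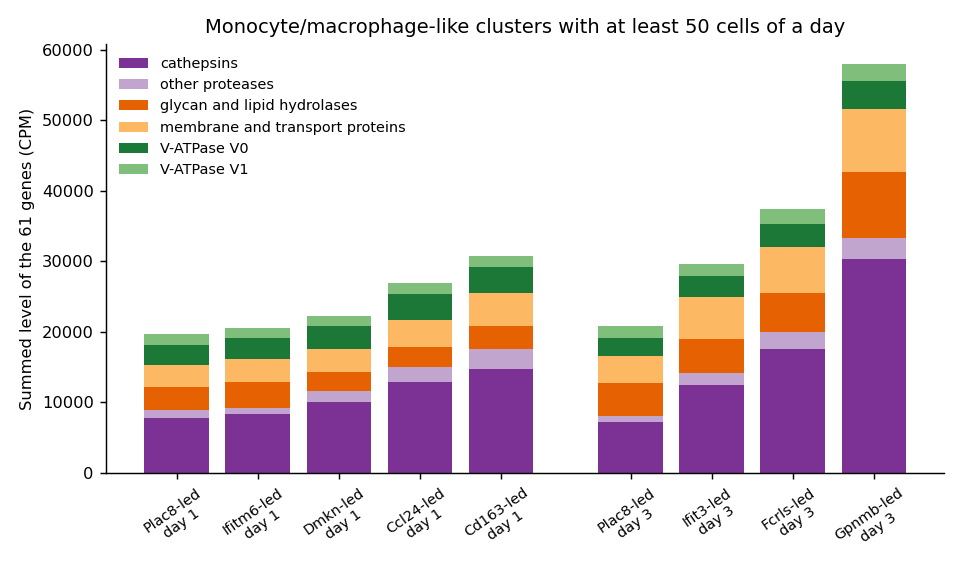
Summed level (CPM, y axis) of the 61 genes in each monocyte/macrophage-like cluster with at least 50 cells of a day (x axis), with bars stacked by functional group. Day 1 clusters lie between 19750 and 30813 CPM and day 3 clusters between 20813 and 57932 CPM.

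The *Plac8*-led cluster, with the monocyte genes *Plac8* and *Ly6c2* at its head, was the only monocyte/macrophage-like cluster with at least 50 cells on both days, and in it the summed level hardly differed between them. The members stood at 19750 CPM on day 1 and 20813 CPM on day 3, a log2 ratio of 0.076 (95% CI 0.053 to 0.098). Of 39 members that reached 100 UMIs there, none was at least 2-fold higher, against 6.84% of 4403 genes, and 1 was at least 2-fold lower, against 4.04%; the median was 0.26 for members and 0.16 for all genes. The member that was lower was *Cd63*, with 286 CPM on day 1 and 56.0 CPM on day 3 (−2.35).

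Single genes in this cluster departed from the pattern of all monocyte/macrophage-like cells. *Ctsd* was lower on day 3, with 1317 CPM on day 1 and 885 CPM on day 3 (log2 ratio −0.57), and *Ctsb* stood at 1779 and 1478 CPM (−0.27). *Ctsc*, at 1152 and 1346 CPM (0.22), and *Gm2a*, at 357 and 446 CPM (0.32), were higher on day 3 in this cluster and lower in all monocyte/macrophage-like cells. *Lipa* (0.99), *Grn* (0.89) and *Psap* (0.48) kept ratios above 0. *Ctsk*, with 5 and 6 UMIs, and *Atp6v0d2*, with 1 UMI on each day, were too sparse to compare.

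**Figure D5:**
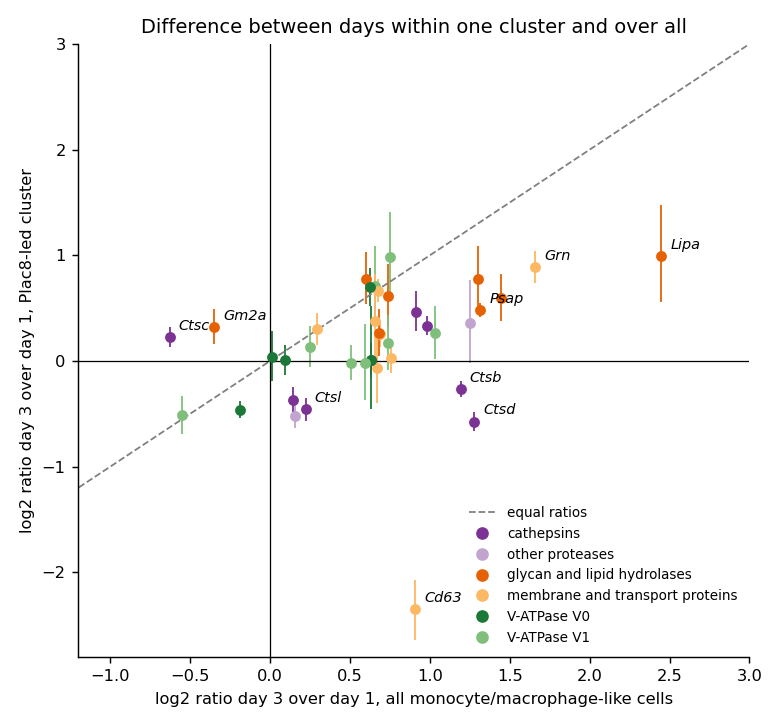
Log2 ratio of CPM, day 3 over day 1, of the members with at least 100 UMIs in the *Plac8*-led cluster (y axis) against that in all monocyte/macrophage-like cells (x axis), with 95% counting intervals, colours for functional groups and a dashed line of equal ratios. *Ctsb* lies at −0.27 in the cluster and 1.19 in all cells, and *Ctsd* at −0.57 and 1.28.

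Within day 3, the *Gpnmb*-led cluster had the highest level of 34 of the 45 members that reached 100 UMIs over the 4 clusters, against 6 in the *Plac8*-led, 4 in the *Ifit3*-led and 1 in the *Fcrls*-led cluster. Members could reach that minimum through the *Gpnmb*-led cluster alone. How many of all genes were highest in it was not computed, so this count does not set the members apart from other genes. Of 45 members that reached 100 UMIs in the *Gpnmb*-led and *Plac8*-led clusters together, 23 were at least 2-fold higher in the *Gpnmb*-led than in the *Plac8*-led cluster, against 15.2% of 8945 genes, and 2 at least 2-fold lower, against 9.61%. The median log2 ratio was 1.01 for members and 0.07 for all genes. Members could pass this minimum through the *Gpnmb*-led cluster alone, while sparse in the *Plac8*-led cluster, and so count as higher. These counts are therefore a description and not a test. *Ctsd* was at 9558 CPM against 885 CPM, *Ctsb* at 11122 against 1478 CPM, and *Cd63* at 1432 against 56.0 CPM. *Atp6v0d2* was at 32.2 CPM in the former and had 1 UMI in the latter. The lower members were *Gm2a* (131.7 against 446 CPM, log2 ratio −1.76) and *Ctsc* (643 against 1346 CPM, −1.07), which were also among the lowest of all members between the days. *Gpnmb* is itself a gene of the lysosomal pathway, so the members are not independent of the definition of this cluster.

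Across the clusters *Ctsk* followed another order than *Atp6v0d2*. On day 3 *Ctsk* was highest in the *Fcrls*-led cluster, with 37.4 CPM, and stood at 28.0 CPM in the *Gpnmb*-led cluster, whereas *Atp6v0d2* stood at 13.3 and 32.2 CPM. On day 1 both were highest in the *Cd163*-led cluster, with 5.55 CPM of *Ctsk* and 4.38 CPM of *Atp6v0d2*.

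FAP-like cells, the fibroblast progenitors of muscle, held lower levels of *Ctsb*, *Ctsd* and *Ctss* than monocyte/macrophage-like cells but the highest *Ctsk* of any type. *Ctsk* was at 78.1 CPM on day 1 and 119 CPM on day 3, 10.6-fold and 4.71-fold above the next type; on day 1 that was the endothelial-like pool, with 7 UMIs (7.39 CPM, 95% CI 2.97 to 15.2). *Ctsf*, a cysteine protease, was at 4.88 and 10.4 CPM, against 0.326 and 1.19 CPM (13 and 53 UMIs) in monocyte/macrophage-like cells; endothelial-like cells of day 1 had no UMI of it, and neutrophil-like cells of day 3 had 1, too few for a comparison with these types. *Cd63* was at 1435 and 1115 CPM, and *Ctsl* at 793 and 632 CPM. The day 1 cells came mostly from a *Prg4*-led cluster (632 of 656) and the day 3 cells from a *Sfrp2*-led cluster (838 of 846).

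In FAP-like cells the members as a list were higher on day 3, together with macrophage transcripts. Of 46 members that passed the minimum, 21 were at least 2-fold higher (45.7%), against 21.3% of 11228 genes, and none was at least 2-fold lower, against 7.13%; the median log2 ratio was 0.91 for members and 0.27 for all genes. With TMM scaling 13 were higher (28.3%), against 14.4% of genes, and none lower, against 13.2%, and the summed log2 ratio was 0.30 in place of 0.62. The 10 macrophage markers, all detected, summed to 319 and 1097 CPM in the same cells, with *C1qb* the most abundant at 63.6 and 269 CPM. Pericyte/smooth muscle markers were also higher on day 3, at 9.61 and 296 CPM. Neutrophil markers (605 and 75.8 CPM) and tenocyte markers (963 and 303 CPM) were lower. In FAP-like cells without a UMI of *Adgre1*, *Fcgr1*, *Csf1r*, *C1qa*, *C1qb* or *C1qc*, 453 of day 1 and 305 of day 3, the summed level was 5889 CPM and 7055 CPM, a log2 ratio of 0.26 in place of 0.62, and 17 of 45 members were at least 2-fold higher, against 19.1% of genes, and none at least 2-fold lower, against 9.77%.

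Named members of FAP-like cells differed in how much of their level was left without the marked cells. *Ctss*, at 75.4 and 256 CPM in all FAP-like cells, was at 2.86 and 11.5 CPM in the cells without macrophage markers. *Cd68* was at 7.10 and 6.34 CPM in the latter. *Atp6v0d2*, at 0.212 and 4.80 CPM in all FAP-like cells, had 1 UMI on day 1 and none on day 3 there. *Grn*, at 89.9 and 391 CPM in all FAP-like cells, was at 49.2 and 210 CPM in the cells without macrophage markers. *Lipa* was at 21.0 and 97.1 CPM in all and at 16.4 and 62.5 CPM without them, and *Ctsh*, an aminopeptidase, at 54.2 and 254 CPM in all and at 37.0 and 220 CPM without them. *Ctsk* stood at 87.3 and 144 CPM without them, above its level in all FAP-like cells. These last 4 were higher on day 3 in both sets of cells.

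Neutrophil-like cells had the highest level of several pump genes on day 1. *Ctse*, an aspartic protease of endosomes, was at 20.5 CPM on day 1 (33 UMIs), against 3.17 CPM in endothelial-like (3 UMIs), 1.76 CPM in dendritic cell-like and 0.377 CPM in monocyte/macrophage-like cells, and had 3 UMIs on day 3. *Ctsg*, the cathepsin of neutrophil granules, had no UMI on day 1, and *Ctsc* was at 74.4 CPM. *Scarb2*, the receptor that brings β-glucocerebrosidase to lysosomes, was at 194 and 99.4 CPM, 2.60-fold above the next type on day 1. The V0 sector summed to 3895 CPM on day 1, above the 3432 CPM of monocyte/macrophage-like cells, and for 12 members, among them *Atp6v0c*, *Atp6v0b* and *Atp6v1e1* (490 CPM), neutrophil-like cells had the highest level of day 1. For 6 of the 12, *Atp6v0a1*, *Atp6v0b*, *Atp6v0e*, *Atp6v1b2*, *Atp6v1f* and *Ppt1*, the interval overlapped that of another type. How many of all genes were highest in neutrophil-like cells was not computed, so the count does not set the members apart. On day 3 *Atp6v1e1* (309 CPM) was still above the other types, 1.39-fold over the next, whereas the interval of *Atp6v0a1* (96.6 CPM from 35 UMIs, 95% CI 67.3 to 134) took in the 88.3 CPM of monocyte/macrophage-like cells.

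The difference between the days in neutrophil-like cells moved with macrophage and fibroblast transcripts. Of 36 members that passed the minimum, 18 were at least 2-fold higher on day 3 (50%), against 20.9% of 2244 genes, and none was at least 2-fold lower, against 23.2%; the median log2 ratio was 1.03 for members and −0.16 for all genes. With TMM scaling, which takes 0.99 off each log2 ratio here, the summed ratio turned from 0.58 to −0.41, 7 members were at least 2-fold higher, against 8.56% of genes, and 12 lower, against 54.3%. The 99 cells of day 3 had a median of 1600 UMIs, and the summed level of the 10 macrophage markers in this type was 176 CPM on day 1 and 3980 CPM on day 3, with *C1qb* at 1234 CPM on day 3 and *Lyve1* at 0 on both days. The fibroblast markers summed to 139 and 2763 CPM, with *Col3a1* at 1104 CPM on day 3. The neutrophil markers of these cells summed to 103971 CPM on day 1 and 22257 CPM on day 3.

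Without the cells that carried a UMI of the same 6 macrophage markers, the summed level of neutrophil-like cells was 13763 CPM on day 1 (606 cells) and 12930.0 CPM on day 3 (56 cells), a log2 ratio of −0.09 in place of 0.58. There, 5 of 27 members were at least 2-fold higher, against 9.56% of genes, namely *Ctsa*, *Hexa*, *Gm2a*, *Cd68* and *Atp6v1a*, from 19 to 41 UMIs each on day 3, and *Ctsd* and *Scarb2* were at least 2-fold lower, against 9.37%. *Lgmn*, at 44.0 and 784 CPM in all neutrophil-like cells, was at 39.9 and 54.2 CPM in the cells without the markers. *Ctsd* was at 1926 and 890 CPM in these cells, lower on day 3.

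Dendritic cell-like cells showed little difference between the days as a list. Of 43 members that passed the minimum, 8 were at least 2-fold higher on day 3 (18.6%), against 12.8% of 7182 genes, and 1 was at least 2-fold lower, against 3.88%; the median log2 ratio was 0.24 for members and 0.23 for all genes. With TMM scaling 2 were higher, against 6.93% of genes, and 2 lower, against 7.48%, and the summed log2 ratio turned from 0.03 to −0.32. *Ctsl* was the lower one, with 1172 CPM on day 1 and 530 CPM on day 3. *Naglu* (1.68) and *Ctso* (1.39) had the highest log2 ratios. Macrophage markers summed to 3240 and 4265 CPM in this cluster, whose own leading genes were those of MHC class II. Neutrophil markers of this cluster summed to 1342 CPM on day 1 and 169 CPM on day 3. Its 9 dendritic cell markers, all detected, summed to 401 and 439 CPM, below the macrophage markers, with *Cd209a* the most abundant at 153 and 236 CPM. Only 3 of the 9 were raised, the fewest that the naming rule allows, so the name is weak and the cluster may hold macrophages. *C1qb* was at 926 and 1312 CPM there, beside 837 and 2435 CPM in monocyte/macrophage-like cells. The part of macrophage and neutrophil transcripts in the values of this cluster was not tested.

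Among the pooled types, *Gm2a* was highest in dendritic cell-like cells on both days, with 547 CPM on day 1 and 557 CPM on day 3, 2.17-fold and 1.90-fold above the next type. Parts of other types came nearer. The *Plac8*-led cluster stood at 357 and 446 CPM, and neutrophil-like cells without macrophage markers at 199 and 445 CPM. *Lipa* was highest in dendritic cell-like cells on day 1, at 103 CPM against 57.7 CPM in neutrophil-like cells. On day 3 its level in monocyte/macrophage-like cells was higher. *Man2b1*, the lysosomal α-mannosidase, was highest in dendritic cell-like cells on day 3, at 235 CPM, 1.32-fold above the next type.

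In the smaller types few members stood above the rest. *Cd63* was at 1479 CPM in satellite cell/myoblast-like cells of day 3, 1.33-fold above FAP-like cells, and *Atp6v0a2* at 42.6 CPM, below the 47.5 CPM of dendritic cell-like cells. In endothelial-like cells of day 1, *Atp6v0a2* was at 41.2 CPM (39 UMIs), 1.41-fold above FAP-like cells with overlapping intervals (29.3 to 56.3 against 26.9 to 31.8 CPM), and *Atp6v1h*, a regulatory subunit of V1, at 65.5 CPM, its interval also overlapping that of monocyte/macrophage-like cells (66.6 CPM). *Ctsw*, the cathepsin of cytotoxic lymphocytes, was at 485 CPM (82 UMIs) in a group of 44 T/NK-like cells of day 3 that came apart only with 20 principal components, at 19.6 CPM (4 UMIs) in the 24 of day 1, and at 0.0224 CPM in monocyte/macrophage-like cells.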

How the data were processed

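Single-cell RNA sequencing of 2 quadriceps libraries, 1 per day after injury, was re-analysed. The files hold UMI counts as the authors deposited them, for every listed barcode of 10x Genomics 3′ libraries, not normalized and without called cells; per the labels they used Cell Ranger 5.0.0 and mm10, whereas the matrix header names another version of Cell Ranger. The deposited files list 737280 barcodes for day 1 and 6794880 for day 3, so the chemistry may differ between the days.

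The 7367 (day 1) and 6640 (day 3) barcodes with most UMIs were taken, and those with fewer than 1000 UMIs, fewer than 200 genes or over 7.5% mitochondrial UMIs were left out. Both libraries were normalized and clustered together with SCTransform and Seurat 5.3.0 (R 4.3.3; 3000 variable genes without the 61 members, 10 PCs, resolution 0.8). Of the marker lists with at least 3 raised markers, the one with most markers among a cluster's top 10 genes gave the name; a cluster with none among them and a median UMI count more than 3-fold below that of its library stayed unnamed, as in the *Il23a*-led cluster (9 of 10 neutrophil markers raised). Doublets were kept, since Scrublet's own threshold marked 2 and 0 cells. UMIs were summed over the cells of a type and day and divided by their total (CPM), with Poisson and binomial 95% intervals. Ratios were taken with 0.5 added to each count, for genes with at least 100 UMIs over both days, and called at 2-fold. TMM scaling was taken from edgeR 4.0.16. The code for the ratios was checked on simulated counts, which says nothing of the samples.

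Genes named by rule were the 5 most abundant members of each day and the 8 highest and 8 lowest ratios in monocyte/macrophage-like cells, the 2 members most specific to each other type, and the V-ATPase genes with a paralog; the other members given with values (such as *Ctss*, *Cd68*, *Lamp1*, *Gusb* and *Tpp1*) were added as examples of their groups after their values were seen. Members, marker lists and context genes were chosen with earlier results of these data known. Of the context genes, at most 6 farthest from a ratio of 0 were to be named, and 1 of these is not reported here. Positions are from GENCODE on GRCm38. The alternatives of cell calling, clustering, naming, depth, ambient RNA and scaling are given at the end.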

Additional observations from a re-analysis of the deposited data

Results flagged for a closer look

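*Ctsl*, the cysteine protease, had ratios past 2-fold in opposite directions in 2 cell types on the CPM scale, and the difference between the types was not tested, since each day was 1 library. In neutrophil-like cells its log2 ratio of day 3 over day 1 was 1.70 (239 and 776 CPM), and in dendritic cell-like cells −1.15 (1172 and 530 CPM). With TMM scaling these were 0.71, within 2-fold, and −1.49. In neutrophil-like cells without a UMI of 6 macrophage markers, the ratio was 0.24.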

How the results depend on the processing

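The summed log2 ratio of day 3 over day 1 in monocyte/macrophage-like cells (0.74) stayed above 0 under every alternative run. It was 0.76 with cells called at 10% of the 99th percentile of UMIs, 0.71 with a mitochondrial limit of 15%, 0.73 without a limit, 0.73 with doublets removed, 0.71 with log-normalization, 0.74 with resolution 0.4, 0.74 with members among the variable genes, 0.76 with each library clustered on its own, 0.69 with cells named by marker score, 0.63 as a mean over cells, 0.75 with ambient RNA subtracted, 0.62 with cells thinned to 3000 UMIs, 0.77 without mitochondrial and ribosomal genes in the total, 0.29 with TMM and 0.23 with median-of-ratios scaling. The same settings, in that order and with 20 PCs after log-normalization, gave for monocyte/macrophage-like over FAP-like cells of day 1 (1.87) values of 1.90, 1.93, 1.88, 2.08, 1.84, 1.88, 1.87, 1.88, 1.80, 1.97, 1.89, 1.88, 1.92, 1.67, 2.38 and 2.42, and of day 3 (1.99) values of 2.02, 2.0, 1.96, 2.18, 1.89, 1.99, 1.98, 1.99, 2.48, 1.97, 2.0, 2.0, 2.01, 1.89, 2.24 and 2.27.

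The count of members at least 2-fold higher (14 of 45, beside 27.3% of all genes) was 7 with TMM and 7 with median-of-ratios scaling, beside 16.3% and 15.3% of all genes. The count at least 2-fold lower (0, beside 4.84%) was 1 with TMM scaling, beside 9.46%, and 2 with median-of-ratios scaling, where the share of all genes was not computed. Under the other planned settings, minima of UMIs included, the count at least 2-fold higher lay between 13 and 21. The share of all genes lay between 18.7% (cells thinned to 3000 UMIs) and 28.1% (total without mitochondrial and ribosomal genes). Members tested numbered 45, or 61 without a minimum of UMIs. Alternatives chosen after seeing the data gave 0.75, 1.92 and 2.05 for the 3 ratios without the *Plac8*-led and *Ifitm6*-led clusters. They gave 0.73 for cells with log-normalized *Adgre1* and *Fcgr1* at 1 or more and without *Pdgfra* or *Ly6a*. Over FAP-like cells without macrophage markers they gave 2.17 and 2.65. In the *Plac8*-led cluster alone the summed ratio was 0.076, with 0 members at least 2-fold higher (6.84% of genes) and 1 lower (4.04%). There *Ctsb* (−0.27), *Ctsd* (−0.57), *Ctsl* (−0.46), *Lgmn* (−0.52), *Ctsz* (−0.37), *Cd63* (−2.35), *Scarb2* (−0.064), *Atp6v1g1* (−0.017) and *Atp6v1c1* (−0.017) turned below 0, while *Ctsc* (0.22) and *Gm2a* (0.32) turned above 0. The cause was not tested. *Atp6v0d2* (−1.36, 1 UMI on each day), *Ctsk* (−1.12, 5 and 6 UMIs), *Ctse* (7 and 3 UMIs) and *Atp6v1g2* (3 and 1 UMIs) also had ratios below 0 but were too sparse to compare.

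No paired analysis was possible because each day has 1 library. With 17 alternatives for each of 28 named members, the *Plac8*-led cluster alone not among them, 23 members had the same sign under all and 21 stayed on the same side of 2-fold. *Ctsb* (lowest 0.68), *Ctsd* (0.77), *Psap* (0.81) and *Hexa* (0.93) came within 2-fold with TMM and median-of-ratios scaling, as did *Atp6v1a* (0.58), *Gusb* (0.85) and *Tpp1* (0.80) with TMM, *Ctsc* (−1.14) and *Atp6v1e1* (−1.06) passed it downwards, and *Ctse*, under the minimum, crossed it; *Ctsl*, *Lgmn*, *Atp6v0d1*, *Atp6v0b* and *Ctsz* changed sign. Day, library, depth and chemistry cannot be told apart, mitochondrial filtering took more barcodes from day 3, and clusters held mostly cells of a single day. Members with fewer than 100 UMIs over both days were left out of the counts of 2-fold ratios, and their levels have wide counting intervals.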
